A study of Homo sapiens with 15 samples.

Results

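The 5.8S gene and internal transcribed spacer 2 (ITS2) were examined as one stretch of the human ribosomal DNA repeat, between positions 6622 and 7935 of its GenBank reference sequence. Its members were all listed cytosines in these positions that had at least 10 reads in at least 2 libraries of any one group. The rule found 342 of the 3505 cytosines listed over the repeat. Of these, 148 were CpG cytosines, the readout of methylation, and 194 lay in CHG or CHH context, where H stands for any base other than G. The 5.8S gene, taken as the first 157 bp of these, held 17 CpG and 28 other cytosines. ITS2, taken as the remaining 1155 bp up to the 28S gene, held 131 CpG and 166 other cytosines. These boundaries come from the published layout of the repeat. RefSeq lists 5 copies of the 5.8S gene, of which 4 have that length.

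The study followed one lymphoblastoid cell line, that is, B cells immortalised with Epstein-Barr virus, after exposure to hexavalent chromium (5 uM, 24 hours). The exposed libraries were labelled day 3, day 7 and day 14, with 3 libraries each. They were set against 6 unexposed control libraries, numbered as 2 sets of 3. Bisulfite-converted DNA was amplified with a panel of primers and sequenced, so neighbouring sites shared amplicons and reads and were not independent of each other. The labels tie no library to a separate culture, and their protocol speaks of 2 biological replicates for each sample, fewer than the 3 numbered, so libraries of a group may share a culture. Therefore every p-value measures the spread between libraries, which may be technical. Both later comparisons used the same 6 controls.

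5.8S rRNA is a structural RNA of the large ribosomal subunit, where it pairs with 28S rRNA. RNA polymerase I transcribes both together with 18S rRNA in one long precursor, and ITS2 is the part of that precursor that separates 5.8S from 28S and is cut out during ribosome assembly. The repeats lie in tandem arrays in which transcribed and silent copies occur side by side, and CpG methylation is known as a mark of silent copies. Each percentage here is the share of reads that kept a C after bisulfite treatment, pooled over all the copies amplified. A cytosine outside CpG is rarely methylated in such cells, so its share of unconverted reads serves as the local check on conversion.

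The libraries held 28716783 to 95852393 reads of C or T summed over all listed cytosines, and the members took 1.28 to 4.33% of these. Depth varied sharply along the stretch. In 5.8S the CpG sites up to 6679 had 21331 to 166145 reads in each library. The 11 tested sites of the first ITS2 stretch had a median of 12 reads in replicate 3 of day 7 and 107 in replicate 2 of day 7. From 7051 to 7138 depth was higher again, with medians of 4080 to 6335 reads in controls. All 17 CpG sites of 5.8S and 60 of the 131 in ITS2 had at least 10 reads in all 15 libraries and were tested. The other 71 ITS2 sites were listed in only some libraries and are described without a test, except where sites listed in at least 2 libraries of each group compared were fitted as an alternative. At the edge of the rule, sites 6957, 6960 and 6967 were just inside with 10 reads in the second-best library of their best group, and sites 7720, 7366 and 7715 were just outside with 6, 5 and 4.

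In control cells 5.8S was divided into a highly methylated first part and a less methylated second part. The 8 CpG sites up to position 6679 had library means of 62.3% at the lowest, 67.3% at the median and 69.2% at the highest. The 9 CpG sites from 6715 to 6775 had means of 18.1%, 23.8% and 27.3% in the same order. The 2 sites that face each other across this step, 6679 and 6715, lie 36 bp apart and averaged 60.1 ± 2.40% and 25.8 ± 2.68% (SD, n = 6). Reads fell across the same step: each control library had 18.7 to 42.4 times as many reads at 6679 as at 6715. Whether these positions come from different amplicons was not tested.

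ITS2 in control cells was not uniformly low. From 6782 to 6894 the library means ran from 18.4 to 32.4% with a median of 26.3%. From 7051 to 7138 they ran from 5.18 to 12.7% with a median of 8.45%, and the site means ran from 4.97% at 7051 to 10.5% at 7120. From 7172 to 7279 the means ran from 12.8 to 24.9%, and from 7373 to 7405 from 3.23 to 8.44%. The 47 sites from 7523 to 7706, at the 3′ side of the listed spacer, had library means of 66.6 to 73.8% with a median of 71.9%. From 7051 to 7405 no control mean of a stretch was above 26.4%, so the description of ITS2 as a low-methylated spacer held there, whereas the values of its 3′ side go against it. No member lay in the 84 bp from 6967 to 7051 or in the 118 bp from 7405 to 7523.

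**Figure D1:**
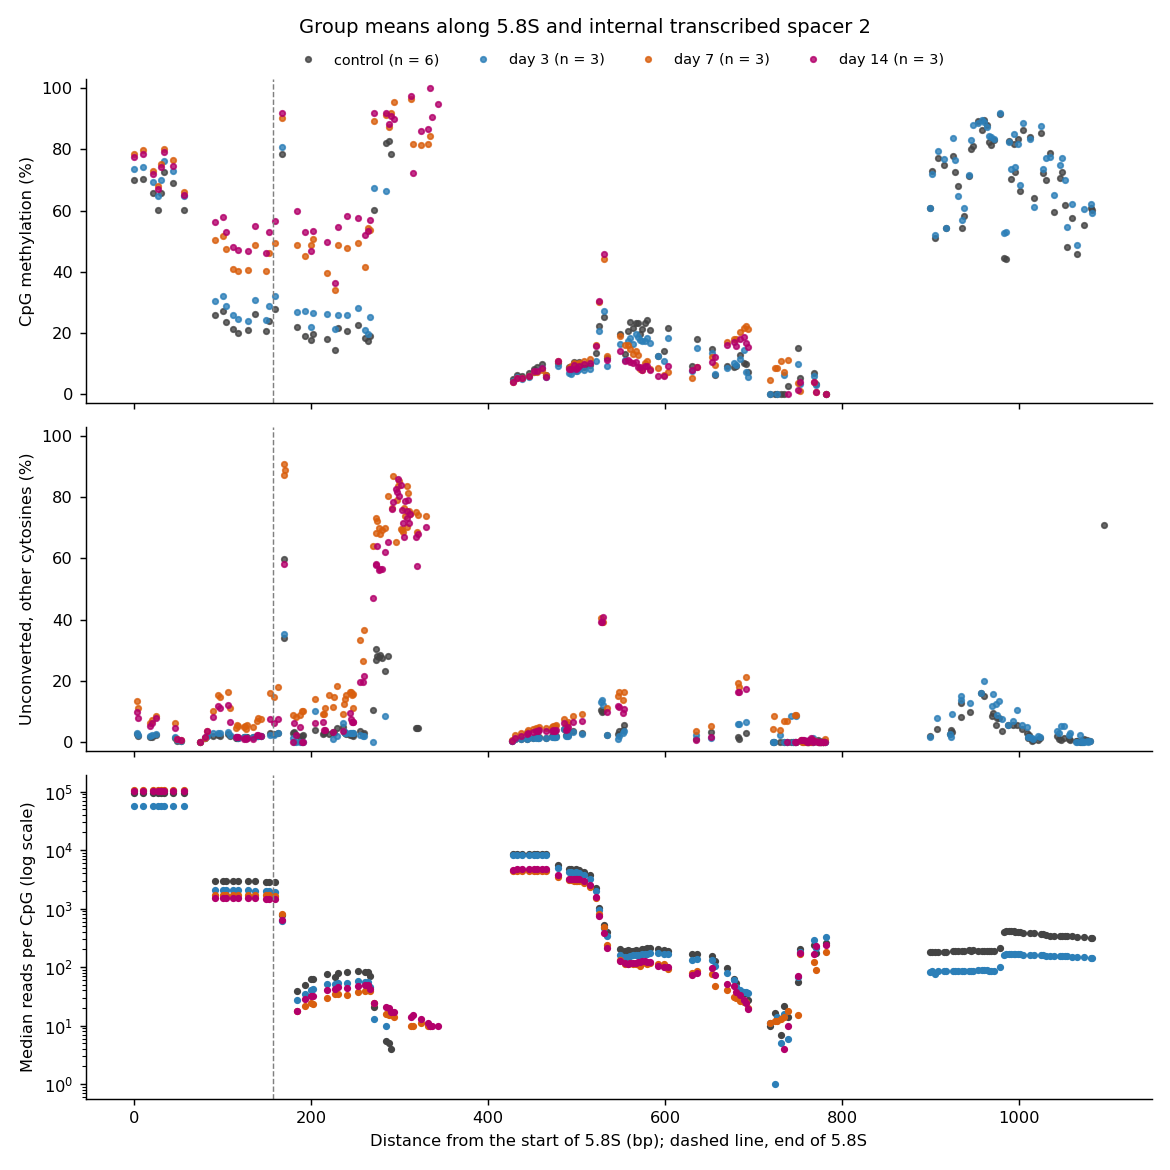
Group means of CpG methylation (top, %), of unconverted reads at other cytosines (middle, %) and median reads per CpG site (bottom, log scale) against distance from the start of 5.8S in bp, for control, day 3, day 7 and day 14. The first 8 sites lie high in every group, the sites just behind them are higher at day 7 and day 14 than in controls, and the sites at the right end are listed almost only in control and day 3 libraries.

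The conversion check moved with the later days. Over the whole repeat, unconverted reads outside CpG made up 0.674 to 1.38% in controls and 0.871 to 1.36% at day 3, but 6.26 to 8.36% at day 7 and 5.45 to 7.54% at day 14. Among the members, 25 of 28 tested cytosines outside CpG in 5.8S and 30 of 52 in ITS2 had a higher share at day 7 (edgeR quasi-likelihood test, Benjamini-Hochberg adjusted p below 0.05), against 60.5% of the 1182 tested over the repeat called higher (61.9% in either direction). At day 14 the counts were 14 of 28 and 14 of 52, against 45.9% higher (47.9% in either direction). None was called at day 3, where 0.0846% was called over the repeat. Single libraries decided several of these counts. Without replicate 1 of day 7 the day 7 counts were 16 and 9, without replicate 2 of day 7 the ITS2 count was 17, and the day 14 count in ITS2 was 3 without replicate 1 of day 14 and 27 without control replicate 2. The values of this check are therefore given beside the results of the stretches.

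At day 3 no member CpG site passed the test: 0 of 17 in 5.8S and 0 of 60 in ITS2, against 0.0% called over the 851 sites tested. At an unadjusted p below 0.05 the members also gave 0 sites and the repeat 31, and both limma and a quasi-binomial model called 0 members. In 5.8S the 3 day 3 libraries had mean methylation of 46.1, 50.5 and 47.2%, above the highest control, 46.0%, with 1.05 to 2.84% unconverted at other cytosines against 0.634 to 3.56% in controls, whereas controls averaged 43.7 ± 2.63% (SD, n = 6). All 17 sites had higher means at day 3, by 2.97 to 5.25 percentage points, and the median over the repeat was also higher, by 2.31 points. In the tested sites of ITS2 the day 3 libraries, at 13.8 to 15.1%, lay inside the control range of 12.4 to 19.1%.

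At day 7 every tested CpG site of 5.8S rose, 17 of 17, against 22.3% of the sites over the repeat called higher and 41.8% called lower (64.2% in either direction). At day 14, 15 of 17 rose, against 24.9% higher and 46.1% lower (71.0% in either direction). The median difference over the 17 sites was 19.6 points at day 7 and 25.6 points at day 14, while over all 851 tested sites it was -5.30 and -5.52 points. The gene mean was 59.9, 59.0 and 58.2% at day 7 and 57.1, 55.8 and 72.9% at day 14, and no later library reached down to the highest control value of 46.0%. With the unconverted share of cytosines within 100 bp taken off each site, 13 sites were called higher on either day, against 16.0% over the repeat at day 7 and 19.7% at day 14 under the same correction. With the second control set alone, 12 were called at day 7 and 9 at day 14.

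The rise was the smaller one in the first part of 5.8S, a difference between parts that was not tested. Mean methylation of its 8 sites was 76.3, 70.4 and 77.2% at day 7 and 74.7, 72.3 and 73.8% at day 14, in each case above the highest control, 69.2%. The median difference over the 8 sites was 7.67 points at day 7 and 6.90 points at day 14. Unconverted reads at the 12 other cytosines there were 6.71, 5.93 and 4.54% at day 7 and 4.71, 4.34 and 4.87% at day 14, against 0.950 to 1.77% in controls. The CpG mean minus the mean of the other cytosines in the same library averaged 65.3 ± 2.32 points over the 6 controls (SD) and 69.1 ± 2.17 over the 3 day 3 libraries. It averaged 68.9 ± 4.13 points at day 7 and 69.0 ± 1.02 at day 14 (n = 3 each), no higher than at day 3, and replicate 2 of day 7, at 64.5 points, lay inside the control range of 61.4 to 67.8. After the local unconverted share within 100 bp was taken off, 4 of the 8 sites were called higher on each of the later days. The shares over the repeat were 16.0% at day 7 and 19.7% at day 14.

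Site 6654 was the CpG of this part with the largest rise. It had 61.1, 66.4 and 68.3% as its lowest, median and highest control values, 77.5, 70.4 and 77.9% at day 7, and 75.3, 73.3 and 74.2% at day 14. Its log2 ratio of methylated to unmethylated reads was higher by 0.68 at day 7 (edgeR adjusted p = 0.00235) and by 0.59 at day 14 (edgeR adjusted p = 0.00608), and no later library overlapped the controls. The first CpG of the gene ran from 65.6 to 72.2% in controls and had 79.7, 73.9 and 82.4% at day 7 (edgeR adjusted p = 0.00388). Sites 6667 and 6679 were called at day 7 but not at day 14. At 6667 the day 7 values of 77.9, 70.6 and 81.0% overlapped the controls, whose highest was 71.4%. At 6679 the day 7 values of 67.7, 63.6 and 66.7% lay just above the highest control of 62.5% (edgeR adjusted p = 0.0470), and the site was not called once the local unconverted share within 100 bp was taken off.

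The differences were larger in the second part of 5.8S. Its library means from 6715 to 6775 were 45.3, 48.9 and 41.2% at day 7 and 41.4, 41.2 and 72.0% at day 14, all above the highest control, 27.3%. Day 3 libraries had 25.2, 29.9 and 27.9%. The median difference over the 9 sites was 22.3 points at day 7 and 29.0 points at day 14. All 9 were called higher on both days, and the count was still 9 on both days after the unconverted share within 100 bp was taken off. Replicate 3 of day 14 stood apart from the other 2 day 14 libraries, and without it the mean difference at day 14 was 18.0 points in this second part instead of 28.3, below the 21.9 points of day 7, and 12.8 points over the whole gene instead of 18.2.

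The unconverted share in this second part differed by fewer points than the CpG values. The other cytosines there had 11.8, 7.15 and 6.31% at day 7 and 3.12, 2.77 and 6.34% at day 14, against 0.397 to 5.01% in controls. Of 16 such cytosines 16 were called higher at day 7, but 5 at day 14, when their median difference was 0.308 points. Over the repeat, 60.5% of other cytosines were called higher at day 7 and 45.9% at day 14. One control library, replicate 2, had 5.01% unconverted, more than replicates 1 and 2 of day 14, and lay far from the other controls in that share. Whether the unconverted share accounts for the CpG differences was not tested. The CpG mean minus that of the other cytosines averaged 21.5 ± 2.50 points over the 6 controls (SD) and 25.7 ± 1.28 over the 3 day 3 libraries. It averaged 36.7 ± 4.40 points at day 7 and 47.5 ± 15.8 at day 14 (n = 3 each).

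Site 6715 opens this second part. Its control values were 21.9, 26.3 and 29.2% at the lowest, the median and the highest, its day 7 values 51.2, 53.6 and 46.5%, and its day 14 values 45.6, 45.5 and 77.3%. The log2 ratio was higher by 1.56 at day 7 (edgeR adjusted p = 0.00124) and by 1.93 at day 14 (edgeR adjusted p = 0.000261), with at least 260 reads in each library. Site 6741 had the lowest control mean of the gene, 20.1 ± 3.07% (SD, n = 6), and reached 39.7, 44.8 and 35.9% at day 7 and 37.0, 37.9 and 66.8% at day 14. Site 6775, the last CpG of 5.8S, ran from 18.2 to 29.5% in controls and had 46.5, 49.5 and 42.9% at day 7. None of these 3 sites had a later library inside the control range. Over the repeat, 161 of the 851 tested sites lay fully above the controls at day 7 and 187 at day 14, and 299 and 337 lay fully below.

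**Figure D2:**
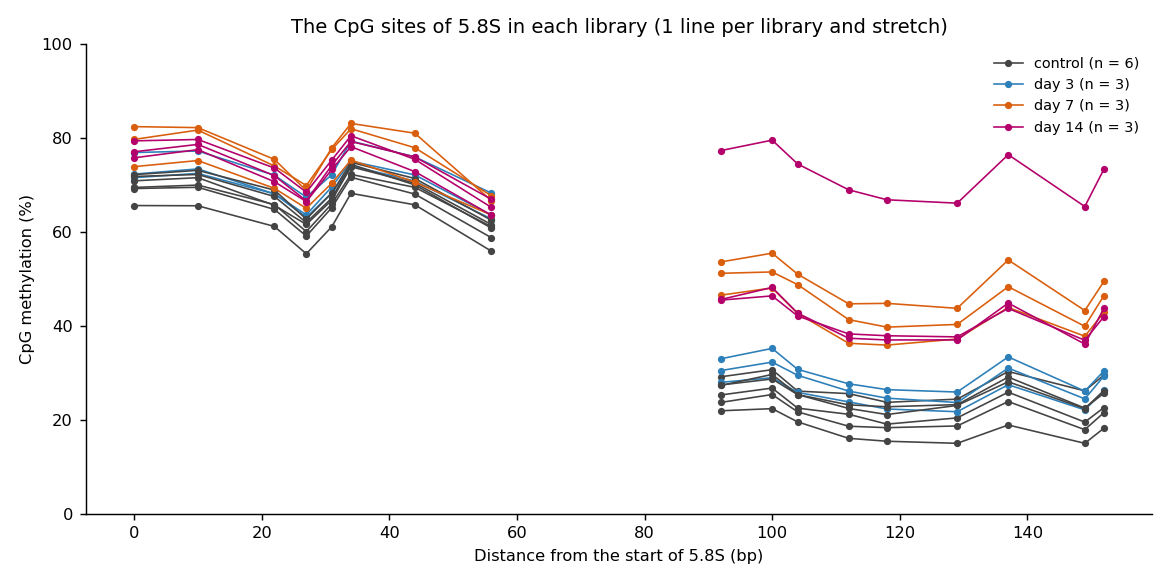
Methylation (%) of the 17 CpG sites of 5.8S against distance from the gene's start in bp, with 1 line per library and per part of the gene, coloured by group. The lines of all groups lie close together up to 6679 and separate from 6715 to 6775, where day 7 and day 14 lie above controls and 1 day 14 library, at a mean of 72.0%, lies above the other libraries.

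In ITS2 the tested sites moved in both directions. At day 7, 13 of 60 rose and 10 fell, and at day 14, 12 rose and 15 fell. These shares, read against the same 22.3 and 41.8% over the repeat at day 7 and 24.9 and 46.1% at day 14, were not above the background in either direction. The mean over the 60 sites was 15.2 ± 3.15% in controls (SD, n = 6), 18.5 ± 5.17% at day 7 and 18.7 ± 2.09% at day 14 (n = 3 each), and the median site differed by -0.177 and -0.773 points. The 52 other cytosines tested in ITS2 averaged 4.28 to 8.98% unconverted at day 7 and 4.73 to 5.88% at day 14, against 0.492 to 4.41% in controls. After the unconverted share within 100 bp was taken off, 5 rose and 39 fell at day 7, against 16.0% higher and 61.0% lower over the repeat under the same correction. At day 14, 9 rose and 36 fell, against 19.7% and 44.9%. With a window of 20 bp, 8 rose and 33 fell of 48 sites at day 7 (15.5% and 61.2% over the repeat), and 10 rose and 31 fell at day 14 (20% and 52.8%). The rises and falls were sorted by position, and replicate 3 of day 7 was thin at many of these sites.

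The first stretch of ITS2, the 15 sites from 6782 to 6894, directly follows the second part of 5.8S. All 11 tested sites were called higher at day 7 and at day 14, against 22.3 and 24.9% of sites over the repeat. The median differences were 26.2 and 33.1 points. Library means were 52.3, 57.6 and 43.7% at day 7 and 50.8, 53.2 and 70.5% at day 14, all above the highest control of 32.4%. Unconverted reads at the other cytosines were 26.5, 21.7 and 5.31% at day 7 and 6.66, 7.15 and 16.8% at day 14, against 0.524 to 10.3% in controls, so the groups overlapped in this check. The CpG mean minus that of the other cytosines averaged 22.0 ± 2.09 points over the 6 controls (SD) and 27.4 ± 1.29 over the 3 day 3 libraries. It averaged 33.4 ± 6.69 points at day 7 and 48.0 ± 5.05 at day 14 (n = 3 each). Of the 11 sites, 4 were still called higher at day 7 and 8 at day 14 once the share within 100 bp was taken off. Under the same correction 16.0 and 19.7% were called higher over the repeat.

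Within that stretch, site 6825 had 10.5, 18.6 and 28.6% as its lowest, median and highest control values, 52.2, 54.2 and 45.5% at day 7, and 46.9 to 63.4% at day 14. It had the largest log2 rise of the stretch at day 7, 2.12 (edgeR adjusted p = 0.000135), on as few as 11 reads. Site 6864 had the largest rise of the members at day 14, 37.8 points, from a control range of 9.62 to 27.1% to 48.6, 54.5 and 71.9%. At 6884 the day 7 values of 51.3, 57.0 and 16.7% overlapped the controls, which reached 22.8%, although the site was called. Site 6790 was already at 79.9% at the control median and rose to 89.3, 90.9 and 90.3% at day 7 and 90.9, 88.9 and 96.2% at day 14.

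No site of the low stretch from 7051 to 7138 passed the test on either later day, 0 of 17, against 64.2 and 71.0% over the repeat. Its library means were 7.40, 6.70 and 7.04% at day 3, 10.5, 7.50 and 6.47% at day 7, and 7.79, 7.94 and 7.45% at day 14, all inside the control range of 5.18 to 12.7%. Of the other cytosines of the stretch, 19 of 21 were called higher at day 7 and 7 of 21 at day 14, against 60.5% and 45.9% over the repeat. Their unconverted share was 6.78, 4.44 and 3.62% at day 7 and 4.21, 3.35 and 3.41% at day 14, against a control median of 1.37% and a highest control of 4.53%. The CpG mean minus that of the other cytosines was 6.57 ± 1.39 points in controls (SD, n = 6), 3.23 ± 0.479 at day 7 and 4.07 ± 0.507 at day 14 (n = 3 each). With the share within 100 bp taken off, 17 of the 17 sites were called lower at day 7 and 14 at day 14, against 61.0% and 44.9% over the repeat. At many of these sites the window reaches 7145 to 7158, where other cytosines had a higher unconverted share than here on both later days. More was taken off in the later libraries on average, so these counts follow partly from the subtraction.

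In the 4 sites from 7145 to 7158, 7154 was the one called, higher on both later days (22.3 and 24.9% called higher over the repeat). Its values were 52.9, 48.3 and 31.5% at day 7 and 47.7, 43.2 and 46.7% at day 14, against 16.2 to 39.2% in controls, so that the day 7 values overlapped the controls and the day 14 values did not. The other cytosines of the same 14 bp stood at 40.1, 36.1 and 21.5% at day 7 and 34.6, 28.3 and 33.7% at day 14, above the CpG mean of the stretch in the same libraries. The CpG mean minus that of the other cytosines went from 10.1 ± 1.38 points in controls (SD, n = 6) to -6.84 ± 3.50 at day 7 and -6.47 ± 2.40 at day 14 (n = 3 each). With the share within 100 bp taken off, 1 of the 4 was called higher on each later day (16.0 and 19.7% over the repeat). Under that correction 2 were called lower at day 7 and 1 at day 14 (61.0 and 44.9% over the repeat). With the share within 20 bp taken off, a window chosen after the values were seen, none was called higher on either later day. In that fit 3 were called lower on each later day, against 61.2% over the repeat at day 7 and 52.8% at day 14.

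The falls of ITS2 lay mostly between 7172 and 7279, where 8 of 18 tested sites were lower at day 7 and 14 of 18 at day 14, and none was higher. Over the repeat, 41.8% of sites were called lower at day 7, near the share in this stretch, and 46.1% at day 14. Library means were 15.2, 12.6 and 4.69% at day 7, and 8.03, 11.3 and 8.87% at day 14. The day 14 libraries all lay below the lowest control of 12.8%, whereas replicate 1 of day 7 lay inside the control range. The median differences were -9.07 points at day 7 and -11.2 points at day 14. Here the unconverted share moved the other way: the 6 other cytosines of the stretch, all near its ends, had 16.9, 12.3 and 5.71% at day 7 and 9.04, 7.24 and 6.64% at day 14, against 1.49 to 5.43% in controls. The CpG mean minus that of the other cytosines was 15.2 ± 3.28 points in controls (SD, n = 6), -0.801 ± 1.03 at day 7 and 1.77 ± 2.57 at day 14 (n = 3 each). With the share within 100 bp taken off, 17 of the 18 sites were called lower at day 7 and 18 at day 14, against 61.0% and 44.9% over the repeat. At many sites this window also takes in the other cytosines from 7145 to 7158. More was taken off in the later libraries on average, so these counts follow partly from the subtraction.

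At site 7203, which had the largest fall of the members at day 14, the control values were 18.9, 24.5 and 30.6%, the day 7 values 15.2, 11.1 and 5.77%, and the day 14 values 6.80, 11.5 and 9.02%. The log2 ratio fell by 1.31 at day 7 (edgeR adjusted p = 0.00258) and by 1.65 at day 14 (edgeR adjusted p = 0.000394), on at least 52 reads, with no later library inside the control range. At 7197 the control values ran from 15.8 to 30.7%, with 9.40, 11.9 and 2.00% at day 7 and 7.92, 8.80 and 6.92% at day 14. At 7226 the highest control was 28.7%, and replicate 3 of day 7 had 0 methylated of 39 reads, which allows up to 7.69%. At 7193 the fall was 10.6 points at day 7 and 14.5 points at day 14.

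**Figure D3:**
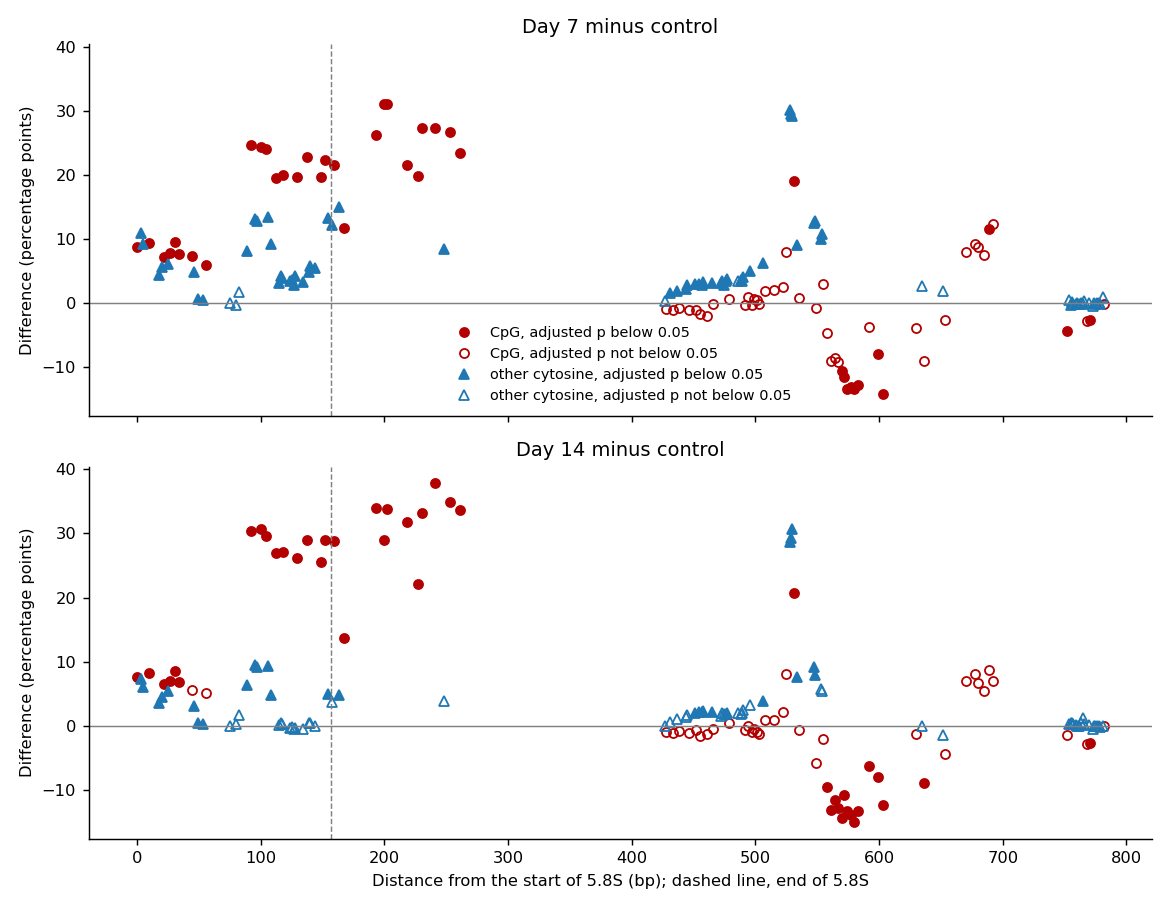
Difference from control (percentage points) against distance from the start of 5.8S in bp, for day 7 and day 14 in 5.8S and ITS2. Circles show mean methylation at each tested CpG site and triangles the mean unconverted share at each tested other cytosine. Filled points have an adjusted p below 0.05. The CpG differences are positive through 5.8S and the first ITS2 stretch, lie near 0 from 7051 to 7138 and are mostly negative from 7172 to 7279, with a highest value of 3.03 points at day 7. The other cytosines from 7172 to 7279 have positive medians, 10.4 points at day 7 and 5.56 at day 14.

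Past 7279 the values were sparse. In the 7 sites from 7293 to 7317, of which 6 were tested, the means were 32.5 and 26.7% in replicates 1 and 2 of day 7, whereas in replicate 3 all 7 member sites read 0 on 10 to 28 reads. Their other cytosines had 29.0 and 29.4% unconverted in the first 2 of these libraries and 0 in the last. Of these sites, 7312 alone was called, higher, at day 7 and none at day 14, against 22.3 and 24.9% called higher over the repeat. The 6 sites from 7342 to 7362 were listed in too few libraries to be tested, at 0 to 3.33% in 4 controls.

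From 7373 to 7405 the methylation was low in every group. Over its 5 member sites the control means ran from 3.23 to 8.44%, day 3 had 3.13, 2.81 (over 4 sites) and 5.83%, day 7 had 2.66, 1.78 and 1.18%, and day 14 had 2.04, 1.73 and 2.11%, so that no later library reached the lowest control. This rested on the untested site 7373, which averaged 15.2 ± 5.39% in controls (SD, n = 6): over the 4 tested sites, control replicate 5 had 1.54%, lower than all 3 day 14 libraries at 1.96 to 2.16%. The other cytosines of this stretch, of which 18 were tested, stayed at or below 0.316% in controls and 0.503% in exposed libraries. None was called on either later day, against 61.9% of other cytosines over the repeat at day 7 and 47.9% at day 14. Sites 7375 and 7394 were called lower at day 7 and site 7394 at day 14, of 4 tested. Among CpG sites over the repeat, 41.8% were called lower at day 7 and 46.1% at day 14. At 7375 the control values of 2.67, 5.69 and 7.28% compared with 1.78, 0.881 and 0% at day 7 (edgeR adjusted p = 0.00153), where the 0 stands for 86 reads and allows up to 3.49%. Site 7394 ran from 1.80 to 7.14% in controls and had 0, 1.61 and 0.229% at day 14 (edgeR adjusted p = 0.00122). Site 7405 was the least methylated of the tested members, at 0 in 9 of 9 exposed libraries, on 88 reads at the fewest.

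**Figure D4:**
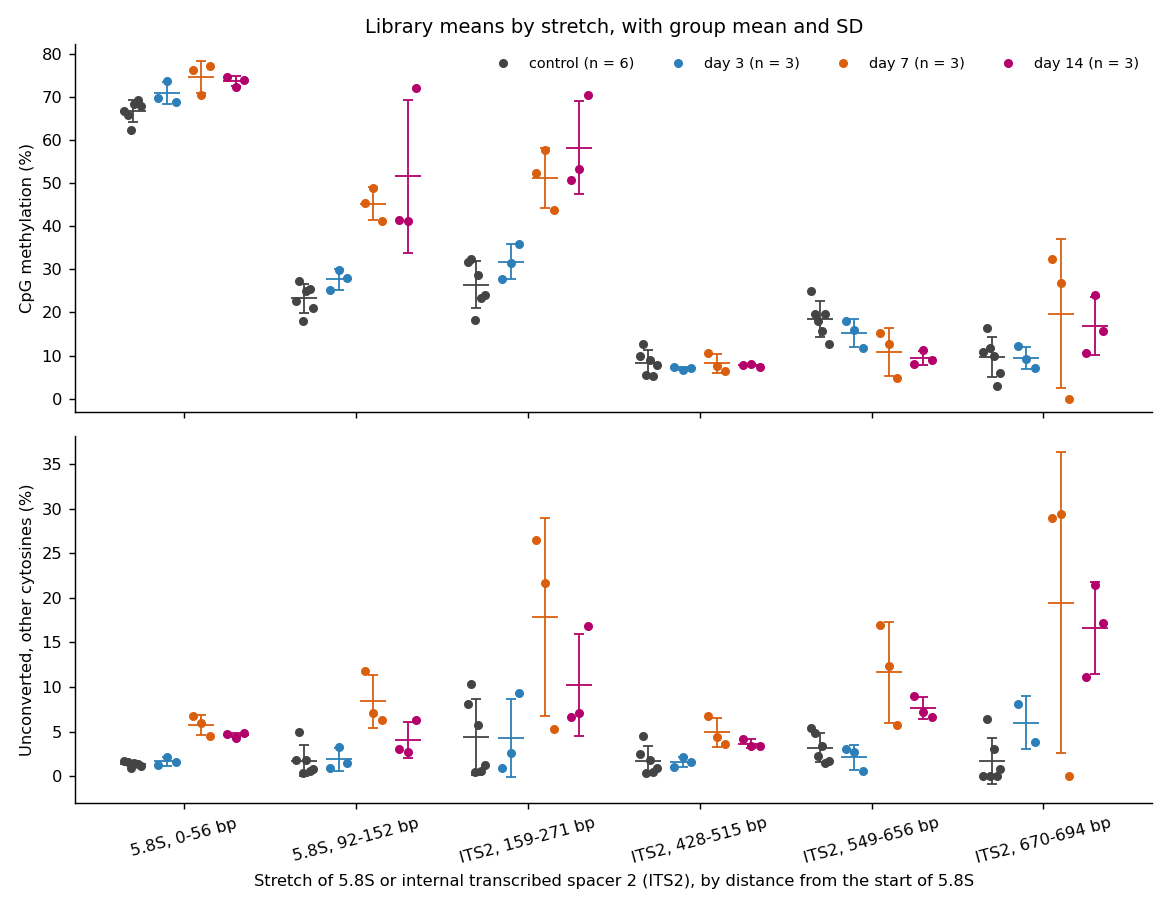
Mean CpG methylation (top, %) and mean unconverted share of other cytosines (bottom, %) per library for 6 stretches of 5.8S and ITS2, named by their distance from the start of 5.8S in bp, with the mean and SD of each group. In the stretch at 92 to 152 bp, which is 6715 to 6775, the later groups lie above controls in CpG methylation, and in the stretch at 549 to 656 bp, which is 7172 to 7279, they lie lower in CpG methylation and higher in the unconverted share.

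A further pair of stretches was listed in some groups only. From 6908 to 6967, replicates 1 and 2 of day 7 listed 9 and 11 of the 11 sites at means of 84.5 and 89.1%, and the day 14 libraries listed 5, 11 and 11 sites at 78.6, 89.0 and 94.6%. Controls and day 3 listed at most 3 of these sites in a library, on 10 to 15 reads. At those few sites 4 controls had 60, 83.8, 79.7 and 0%, with other cytosines at 0 to 37.0%, and 2 day 3 libraries had 65 and 72.7%, with other cytosines at 0 and 3.33%. Other cytosines of the stretch were themselves unconverted at 71.9 and 76.9% in those day 7 libraries and at 59.3, 65.3 and 77.2% at day 14, so other cytosines too were mostly unconverted in these reads.

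The 3′ side of ITS2, from 7523 to 7706, showed the opposite pattern of listing. All 47 sites had at least 10 reads in at least 2 control libraries and 2 day 3 libraries, while 2 of the 6 later libraries listed any of them. Day 3 means of 76.6, 75.2 and 67.4% overlapped the control range of 66.6 to 73.8%, with unconverted shares of 4.85, 5.87 and 7.19% against 2.33 to 6.05% in controls. The day 3 mean was higher at 35 of the 47 sites, with a median difference of 2.16 points (-3.02 to 8.87), and none was called when sites listed in at least 2 libraries of both groups were fitted. The highest control mean was at 7601, 91.6 ± 4.53%, and the lowest at 7608, 44.3 ± 7.83% (SD, n = 6 each), only 7 bp further on.

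Of the later libraries, replicate 1 of day 7 listed 30 of these 47 sites on 11 to 106 reads. Of these, 29 read at least 99% methylated, while the other cytosines of the stretch were unconverted at 0.0684%. The exception was 7577, which had 0 methylated of 106 reads, which allows up to 2.83%, against 82.2 to 97.3% in controls. Replicate 2 of day 14 listed sites 7606 and 7608, at 0 of 12 and 0 of 13 reads, which allow up to 25% and 23.1%. With 1 library on each day, day 7 and day 14 have no replicate check here.

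**Figure D5:**
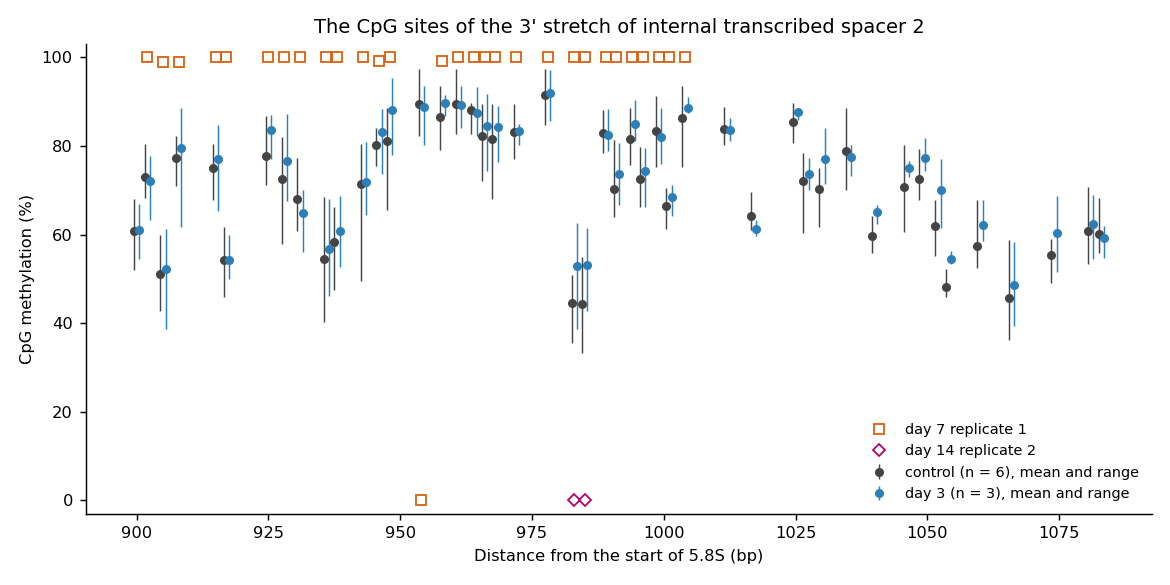
Methylation (%) of the 47 CpG sites from 7523 to 7706 against distance from the start of 5.8S in bp, with group means and the range over libraries for control and day 3, and single values for the 2 later libraries that listed any. Control and day 3 overlap along the stretch, while replicate 1 of day 7 lies at 99% or more at 29 of 30 sites.

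Few member CpG sites were called between day 14 and day 7. None of the 17 sites of 5.8S and 1 of the 60 of ITS2 passed the test, against 18.6% of the sites over the repeat (13.9% higher and 4.7% lower at day 14). The ITS2 site was 7375, at 3.68, 3.51 and 4.16% at day 14 against 1.78, 0.881 and 0% at day 7 (edgeR adjusted p = 0.0403), and it was not called when any one of these 6 libraries was left out. Gene means of 5.8S overlapped between the days, at 58.2 to 59.9% and 55.8 to 72.9%, and so did the means of the tested ITS2 sites, at 12.6 to 22.3% and 16.5 to 20.6%. The median site difference, day 14 minus day 7, was 6.35 points in the second part of 5.8S, 7.32 in the first ITS2 stretch and -0.927 in the first part of 5.8S. In that ITS2 stretch the CpG mean minus that of the other cytosines was 25.8 to 38.4 points at day 7 and 44.2 to 53.7 at day 14. With 3 libraries on each day, a missing call does not show that the days were alike.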

How the data were processed

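Read counts of C and T per cytosine, and the fraction methylated computed from them, are the authors' deposited values per the file headers, for 15 bisulfite PCR libraries (6 control, 3 each of day 3, 7 and 14). Trim Galore, BSMAP 2.90, SAMtools 1.3.1 and methylKit were used, per the submitters' processing notes; order, settings and any correction for unconverted reads are not given in the sources used here. The deposited depth was at least 10 in each entry, but reads of C or T, the reads used here, were below 10 in 994 entries. No molecular identifiers are recorded, so limits at 0 reads (3 counts) cover counting error only. The fraction matched the counts within 0.0001 in all 44176 entries.

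The 851 CpG sites, and separately the 1182 other cytosines, that reached 10 reads in each library were fitted with edgeR 4.0.16 (R 4.3.3) quasi-likelihood tests of C and T counts, all groups sharing the spread, with Benjamini-Hochberg adjustment over all sites and a threshold of 0.05. The tests were checked on simulated data. Stretch and gene means weight sites equally and are descriptions without a test. To remove the local unconverted share, the mean percentage at other cytosines within 100 bp (or 20 bp) was taken off the C reads of each site and library. Where that share of the reads exceeded the C reads, no C reads were left. Alternatives included limma 3.58.1, a quasi-binomial model, other read minimums, 1 control set, a replicate block and leaving out each library. Python 3.11.15, numpy 2.4.6, pandas 2.3.3, scipy 1.17.1 and matplotlib 3.10.9 were used for the rest.

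Named sites were, per comparison and for 5.8S and ITS2 each, the 5 called sites that rose most and the 5 that fell most (fewer where fewer were called), or the 3 lowest p where none was called, the ends of stretches, and the highest and lowest control sites of 5.8S and ITS2; sites 6790, 7120, 7154, 7312, 7394, 7577 and 7606 were named after their values were seen. Members, lists and alternatives were chosen with earlier results of these data known, and the finer stretch boundaries and the 20 bp window after the values were seen. No pair of libraries in a group was a copy: their C and T reads differed by a chi-square of at least 3.81 per degree of freedom.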

Additional observations from a re-analysis of the deposited data

Results flagged for a closer look

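Among 50 sets of 6 control values, 2 were flagged for a library far from the others, where chance gives about 1 in 20. Control replicate 2 had 5.01% unconverted reads at the other cytosines of 5.8S from 6715 to 6775, and control replicate 3 had 0.571% methylation at site 7405 where the other 5 controls had 0. With those 5 at 0, any value above 0 would have been flagged at 7405, however small. Site 7375 differed between the later days, by 2.896 points more at day 14 than at day 7, in the test of that difference.

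Other values lie at sites left out of the fit over all 15 libraries, in the first case mainly for want of reads in controls and day 3, in the second in the later libraries. From 6908 to 6967 the CpG means were 84.5 and 89.1% in replicates 1 and 2 of day 7 and 78.6, 89.0 and 94.6% in the 3 day 14 libraries, beside unconverted shares of 59.3 to 77.2% at the other cytosines there. From 7523 to 7706 replicate 1 of day 7 had a CpG mean of 96.5%, the one later library to list more than 2 of those sites.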

How the results depend on the processing

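The mean of 5.8S was higher than in controls on both later days in every alternative run, no alternative called a 5.8S site lower, and none called a CpG member at day 3. Of the counts and means compared, 322 stayed within the bounds set and 44 moved. Depth limits ITS2: with at least 30 reads in all libraries, 11 of 41 ITS2 sites were called at day 7 and 15 at day 14, and with at least 100 reads 3 of 23 on each day. With the unconverted share within 100 bp taken off, ITS2 calls became 44 and 45 (5.8S 13 and 13), and within 20 bp 41 and 41 (5.8S 15 and 14). Few sites had other cytosines within 20 bp under 5% unconverted in every library: of 2 in 5.8S, 2 were called at day 7 and 0 at day 14, and of 3 in ITS2, 1 and 0. With the second control set alone, 5.8S had 9 calls at day 14. Between day 14 and day 7, 5.8S had 1 call with the 20 bp share taken off, and ITS2 had 2 with that and 0 with 100 reads, with sites listed in 2 libraries a group, with only the groups compared, in the quasi-binomial model, with the 100 bp share taken off and without any one library.

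The mean difference of 5.8S was 15.3 points at day 7, 9.17 with reads summed over sites and 11.5 with the 100 bp share taken off, and 18.2 at day 14, 8.18 with reads summed. That of the tested ITS2 sites was 3.28 points at day 7 and 3.51 at day 14, but -3.73 and -2.31 with the 100 bp share taken off and -7.70 and -9.43 over every member listed in a library. At site 6876 the day 7 log2 difference turned to -0.0120 with the 100 bp share taken off. Except for that share and the sites averaged, which change the values by construction, the cause of these moves was not tested.

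Without each library in turn, calls ranged from 13 to 17 at day 7 and 11 to 15 at day 14 in 5.8S, and from 19 to 27 and 23 to 27 in ITS2. Cytosines outside CpG ranged from 16 to 26 (day 7) and 10 to 14 (day 14) in 5.8S, and from 9 to 33 and 3 to 27 in ITS2, the lowest being without replicate 1 of day 7 (16 and 9) and of day 14 (3), and 17 without replicate 2 of day 7. In ITS2 at day 14 the others were 7, 6 and 6 without control replicates 3, 5 and 6, and 6 and 4 without day 14 replicates 2 and 3.

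With the replicate number as a block, the replicate block fit, 16 and 15 sites of 5.8S and 22 and 27 of ITS2 were called at day 7 and day 14, and 0 between them. Same-numbered libraries were not treated as paired: their 12 correlations ran from -0.196 to 0.174, 4 of them over 0.1, and 1 of 9 exposed libraries correlated best with controls of its own number.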
